A study of Mus musculus with 6 samples.

Results

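Oxidative phosphorylation is carried out by 5 protein complexes of the inner mitochondrial membrane. Complexes I to IV pass electrons from NADH and succinate to oxygen and, except for complex II, pump protons. Complex V, the ATP synthase, uses the proton gradient to make ATP. The subunits come from 2 genomes: most are encoded in the nucleus and imported, while a few core subunits of complexes I, III, IV and V are encoded by the mitochondrial DNA, where they are transcribed as long RNAs and cut apart. Some nuclear subunits exist as alternative isoforms that cells exchange for each other by tissue or under low oxygen, and the isoforms *Cox4i2* and *Ndufa4l2* are known from brain pericytes.

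The genes described here are the protein-coding genes whose mouse symbol marks a subunit of these complexes (Ndufa, Ndufb, Ndufc, Ndufs, Ndufv, *Sdha* to *Sdhd*, Uqcr, Cox4 to Cox8, Atp5 and the mitochondrial mt-Nd, mt-Co, mt-Atp and *mt-Cytb* genes). The rule took 105 of 33460 genes in the tables, of which 20930 were protein-coding. Of the 105, 92 were nuclear and 13 were mitochondrially encoded. By their known roles, 39 nuclear and 7 mitochondrial genes belonged to complex I as named, 4 to complex II, 8 and 1 to complex III, 18 and 3 to complex IV, and 15 and 2 to complex V. Another 8 nuclear genes carry such a symbol without being a subunit: *Ndufaf1* to *Ndufaf4*, which assist the assembly of complex I, and *Cox4nb*, *Atp5s*, *Atp5sl* and *Atp5l-ps1*. The rule used names only and no measured value.

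Brain tissue for both groups was taken from *Pdgfrb-eGFP/NG2-DsRed* mice (line Tg(Pdgfrb-eGFP)JN169Gsat/Mmucd for the first reporter) at postnatal day 6, which carry eGFP under the *Pdgfrb* promoter and DsRed under the NG2 promoter. Per the study's methods, 3 such brains were each divided along the midline. The first part of each gave microvascular fragments, captured with anti-CD31 beads and holding endothelial and mural cells together. The second gave FACS sorted mural cells positive for both reporters. Both groups (3 samples each, called fragments 1 to 3 and mural 1 to 3) carried both transgenes and received no treatment, so the comparison asks how the sorted mural cells differ from the vessel preparation that contains them. RNA depleted of ribosomal RNA was sequenced, and the values are FPKM, fragments per kilobase of transcript scaled by sequencing depth, which can be compared between genes as levels per length.

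All 9 mural cell markers listed for this check (Pdgfrb, *Cspg4*, *Rgs5* and others) were higher in mural cells, with summed levels of 357 to 574 FPKM in fragments and 3311 to 4599 FPKM in mural cells. Endothelial RNA was present in both groups: the 10 endothelial markers summed to 2307 to 2667 FPKM in fragments and to 1684 to 2152 FPKM in mural cells, and 6 of 10 were lower. All 8 microglial markers were lower in mural cells, from a sum of 1728 to 2111 FPKM down to 110 to 186 FPKM. The 6 astrocyte markers overlapped between the groups, from 268 to 378 FPKM in fragments and from 182 to 678 FPKM in mural cells, where mural 3 stood highest. Of the 5 markers of oligodendrocyte progenitors, 1 was higher (Pdgfra), and no tested neuronal or erythroid marker passed the test. No mural, endothelial, microglial or astrocyte marker was listed at 0 in all 3 mural samples. The libraries held an estimated 5.44 to 5.97 M fragments on protein-coding genes in fragments and 1.04 to 2.37 M in mural cells. For 27 nuclear members whose fragments could be recovered, the median member had 82 to 90 fragments in each fragments library and 44, 16 and 15 fragments in mural 1, 2 and 3, so counting error is largest in mural 2 and mural 3. In bulk RNA, fewer cells of a type and less RNA per cell cannot be told apart.

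The 2 genomes differed in the direction of most calls and of their medians. Of 14801 genes that reached 1 FPKM in 3 or more samples and were tested, 99 were members, and 15 of them were higher and 10 lower in mural cells at an adjusted p under 0.05 (limma on log2(FPKM + 1), Benjamini-Hochberg over all genes tested). The 6 members that did not reach this level were *mt-Nd4l*, *Cox6a2*, *Cox7b2*, *Cox8b*, *Cox8c* and a second *Ndufb8* identifier listed at 0 throughout. All 15 higher members were nuclear (15 of 87, or 17.2%, against 9.34% of all genes tested). Of the 10 lower members, 8 were mitochondrially encoded (8 of 12, or 66.7%, against 13% of all genes) and 2 were nuclear (2 of 87, or 2.3%). Among the 5448 tested genes with a mean of at least 20 FPKM, 791 were higher and 676 lower, with a median log2 fold change of -0.0004. The share called higher among them was larger than over all genes tested and nearer to that of the nuclear members. The median log2 fold change was 0.15 over the nuclear members and -1.04 over the mitochondrial members, beside -0.12 over all genes tested. The nuclear members went both ways, with 52 above 0 and 35 below, while 1 mitochondrial member lay above 0 and 11 below. Leaving out a library moved these counts: without fragments 1 or fragments 2 only 2 members were called lower, and without mural 1 there were 16. Over all genes tested, 1927 of 14801 were lower with every library in. In these 3 runs it was 741 of 13916, 804 of 13931 and 2127 of 14468. Without fragments 3, 9 members and 719 of 13966 genes were lower. Of the 25 calls, 9 remained with each library left out in turn: *Ndufa4l2*, *Cox4i2*, *Sdhc*, *Atp5b*, *Atp5o*, *Ndufv2*, *Uqcrc1*, *mt-Nd4* and *mt-Nd6*. Quantile normalization moved the median over all genes from -0.12 to 0.0017 and left the medians of the nuclear and mitochondrial members at 0.20 and -1.07.

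**Figure D1:**
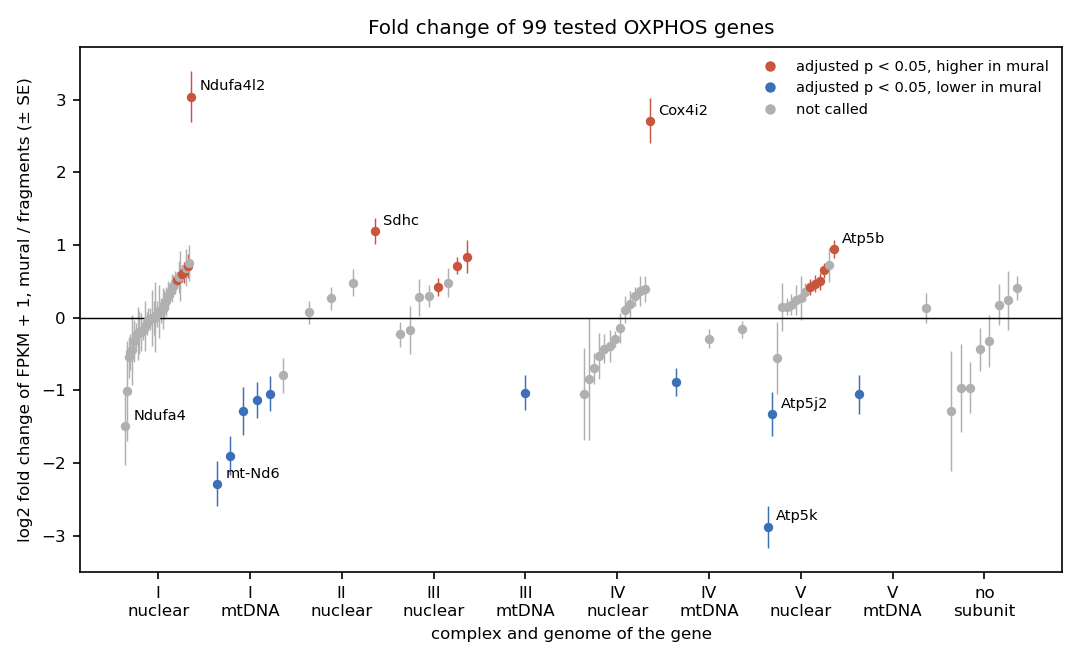
log2 fold change of FPKM + 1, mural over fragments, with its standard error, for the 99 tested genes, grouped on the x axis by complex and by genome; each point is 1 gene and its colour gives the call. Of the 12 mitochondrial points 11 lie below 0, while nuclear points lie on both sides, with *Ndufa4l2* (3.05) and *Cox4i2* (2.71) far above the rest.

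With a further requirement of more than 2-fold between mean FPKM values, 3 members were higher (3.03% of 99, against 6.43% of all genes) and 9 were lower (9.09%, against 10.1%). The higher ones were *Ndufa4l2*, *Cox4i2* and *Sdhc*. The lower ones were 7 mitochondrial genes and the nuclear genes *Atp5k* and *Atp5j2*. Every mural sample lay above every fragments sample for 25 members, all nuclear (25.3% of 99, against 16.5% of all genes), and below for 18 members (18.2%, against 24.5%), of which 10 were mitochondrial. Summed over the 84 nuclear subunits, the level was 4872, 4863 and 4529 FPKM in fragments and 6782, 5976 and 6024 FPKM in mural cells. Without *Atp5b*, the gene with the highest level among them, it was 4126, 4173 and 3846 FPKM and 5326, 4731 and 4642 FPKM. The 13 mitochondrial subunits summed to 4255, 4139 and 3309 FPKM in fragments and to 2723, 2264 and 2457 FPKM in mural cells. Neither pair of ranges overlapped, and the sums moved apart: the mitochondrial sum was 0.731 to 0.873 of the nuclear sum in fragments and 0.379 to 0.408 of it in mural cells. These sums are given without a test.

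**Figure D2:**
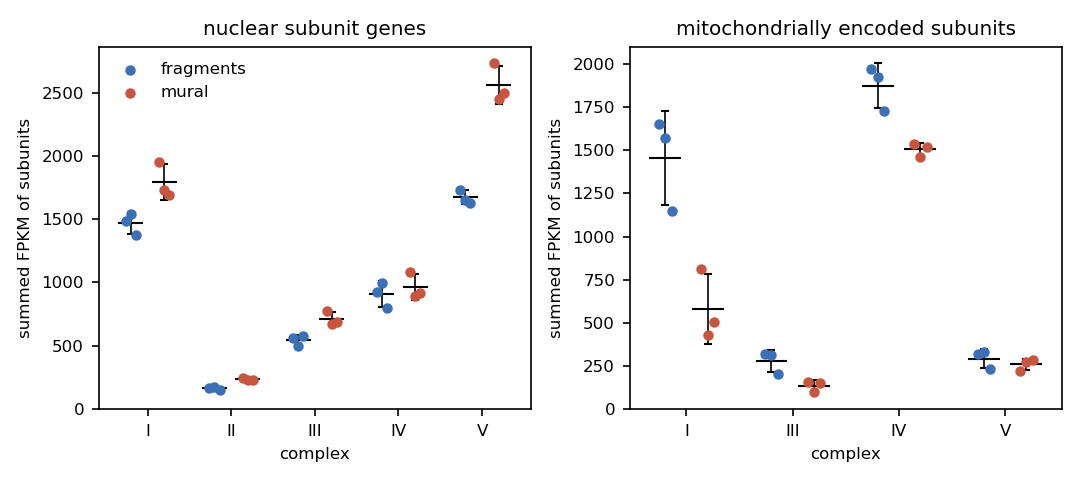
Summed FPKM of the subunits of each complex, nuclear genes on the left and mitochondrial genes on the right; points are single samples, horizontal lines the mean and bars the SD (n = 3). Nuclear complex V has a mean of 1672 FPKM in fragments and 2559 FPKM in mural cells (966 and 1197 FPKM without *Atp5b*), while mitochondrial complex I drops from 1455 to 581 FPKM.

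The alternative isoforms had the largest log2 fold changes among the members called higher. *Ndufa4l2* encodes a relative of *Ndufa4*, a subunit first assigned to complex I and later found with complex IV, and is a known target of the oxygen sensing factor HIF-1. It lies on chr10:126951995-126954208 (NCBIM37, plus strand, 4 exons). Its level was 13.4, 14.5 and 5.07 FPKM in fragments and 103, 93.6 and 76.9 FPKM in mural cells. All mural samples stood above all fragments samples, and the log2 fold change was 3.05 ± 0.35 (SE, adjusted p = 0.00111). The gene overlaps *Shmt2* on the opposite strand, and whether the counting used strand is not given in the sources used here.

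Its common counterpart *Ndufa4* was at 35.04, 53.1 and 25.5 FPKM in fragments and at 21.6, 4.57 and 17.4 FPKM in mural cells. The groups did not overlap, but the difference did not pass the test (log2 fold change -1.49 ± 0.53, adjusted p = 0.0879). *Ndufa4l2* made up 16.6 to 27.7% of the 2 genes' summed FPKM in fragments and 81.5 to 95.3% in mural cells. The 95.3% belongs to mural 2, where *Ndufa4* was at 4.57 FPKM. The transcript of *Ndufa4* has 492 bases, under the 500 bases required for a fragment estimate, so the fragments behind its values are not given. Such a low value of a short gene in a shallow library is imprecise. With mural 2 left out, the log2 fold change of *Ndufa4* was -0.87.

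*Cox4i2* encodes the alternative form of subunit IV of cytochrome c oxidase, known from lung and from cells under low oxygen. It lies on chr2:152579909-152590773 (NCBIM37, plus strand). Its level was 11.5, 14.2 and 5.68 FPKM in fragments and 85.3, 61.0 and 65.1 FPKM in mural cells, again without overlap (log2 fold change 2.71 ± 0.31, adjusted p = 0.00104). *Cox4i1*, the common form, was at 134, 147 and 110 FPKM in fragments and at 168, 112 and 146 FPKM in mural cells. The 2 groups overlapped for *Cox4i1* (log2 fold change 0.11 ± 0.18, adjusted p = 0.707). *Cox4i2* held 4.92 to 8.80% of the summed FPKM of the pair in fragments and 30.8 to 35.3% in mural cells. Fragments 3 had the lowest level of both alternative isoforms among the fragments samples.

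**Figure D3:**
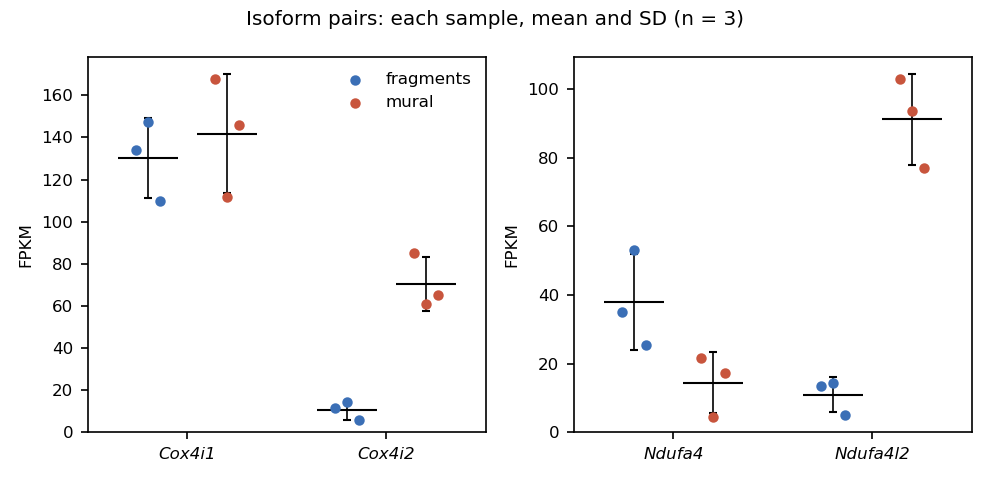
FPKM of *Cox4i1* and *Cox4i2* (left) and of *Ndufa4* and *Ndufa4l2* (right) in each sample, with the mean and SD (n = 3). *Cox4i1* overlaps between the groups, *Cox4i2* and *Ndufa4l2* are higher in all mural samples, and *Ndufa4* is below the fragments samples in all mural samples.

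The coding sequences of each pair are shown around their longest identical stretch, since shared reads would blur a pair. Capitals mark the longest stretch that both members of a pair hold without a difference (GENCODE transcripts on NCBIM37, coding strand). In *Cox4i1* the window is bases 270 to 333 of the coding sequence and in *Cox4i2* bases 279 to 342. In *Ndufa4* it is bases 106 to 183 and in *Ndufa4l2* bases 121 to 198.
Cox4i1: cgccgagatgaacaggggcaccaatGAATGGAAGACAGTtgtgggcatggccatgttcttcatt
Cox4i2: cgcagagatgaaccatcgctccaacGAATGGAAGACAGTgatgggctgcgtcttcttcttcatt
Ndufa4: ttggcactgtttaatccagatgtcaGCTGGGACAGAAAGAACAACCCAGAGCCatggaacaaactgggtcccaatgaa
Ndufa4l2: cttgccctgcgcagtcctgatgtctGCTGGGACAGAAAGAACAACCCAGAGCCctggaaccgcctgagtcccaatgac
The shared stretch was 14 bases in the first pair and 28 bases in the second. Over the aligned coding bases, 70.5% were identical in the first pair and 71.9% in the second.

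The tissue forms *Cox7b2*, *Cox8b* and *Cox8c* were listed at 0 in all 6 samples, and *Cox6a2*, the heart and muscle form of subunit VIa, was listed at 0.471 FPKM in fragments 1 and at 0 elsewhere. *Cox7a1*, the heart and muscle form of subunit VIIa, was at 1.37 to 3.83 FPKM in fragments and at 3.5, 0 and 0 FPKM in mural cells, and *Cox6b2*, the testis form of subunit VIb, was at 4.63 to 9.16 FPKM and at 11.4, 0 and 3.62 FPKM. The common forms *Cox6a1*, *Cox6b1*, *Cox7a2*, *Cox7b* and *Cox8a*, and the *Cox7a2* relative *Cox7a2l*, did not pass the test. Their log2 fold changes ran from -0.70 (Cox7b, adjusted p = 0.0558) to 0.37 (Cox8a, adjusted p = 0.241). Of the 3 genes for the c subunit of the ATP synthase, whose mature proteins are the same, *Atp5g3* was higher (log2 fold change 0.50 ± 0.11, adjusted p = 0.0185). *Atp5g1* (0.73 ± 0.24, adjusted p = 0.069) and *Atp5g2* (-0.56 ± 0.50, adjusted p = 0.475) did not pass.

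Complex V held the nuclear subunits with the highest levels. Of 15 tested, 5 were higher and 2 lower, with a median log2 fold change of 0.27. *Atp5b*, the catalytic beta subunit, had the highest level of all nuclear members, with 745, 691 and 683 FPKM in fragments and 1456, 1245 and 1382 FPKM in mural cells. Every mural sample stood above every fragments sample (ratio 1.93, log2 fold change 0.94 ± 0.13, adjusted p = 0.00215). *Atp5b* holds small nucleolar RNA genes in its introns and overlaps *Baz2a*, and how their reads were assigned is not given in the sources used here. Under quantile normalization its log2 fold change was 2.81.

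*Atp5o*, a stalk subunit that makes the enzyme sensitive to oligomycin, was at 73.4, 75.2 and 82.0 FPKM in fragments and at 114, 123 and 128 FPKM in mural cells (log2 fold change 0.65 ± 0.11, adjusted p = 0.00485). *Atp5a1*, the alpha subunit, was at 134 to 157 FPKM and at 184 to 208 FPKM (0.43 ± 0.11, adjusted p = 0.0317). *Atp5d*, the delta subunit, rose as well (0.47 ± 0.11, adjusted p = 0.025). The calls of *Atp5a1*, *Atp5d* and *Atp5g3* were each lost without any 1 of the 3 fragments libraries. The summed nuclear level of complex V was 1.53 times as high in mural cells on average, and 1.24 times as high without *Atp5b*. The same ratio was 1.44 for complex II, 1.31 for complex III, 1.22 for complex I and 1.07 for complex IV. Single genes weigh in these ratios too. The complex IV mean was 905 FPKM in fragments and 965 FPKM in mural cells, of which *Cox4i2* gave 10.5 and 70.5 FPKM. For complex II it was 163 and 235 FPKM, of which *Sdhc* gave 27.7 and 65.0 FPKM.

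Both lower nuclear members belong to the membrane part of the ATP synthase and lie on chromosome 5. *Atp5k*, the e subunit (chr5:108862263-108863467, NCBIM37, minus strand), was at 8.23, 6.61 and 4.66 FPKM in fragments and was listed at 0 in all 3 mural samples (adjusted p = 0.000604). All 270 tested genes that were listed at 0 in every mural sample were called lower, and with any fragments library left out *Atp5k* no longer passed the filter. Its longest transcript is 563 bases, and it also has 1 near-identical copy elsewhere in the genome. *Atp5j2*, the f subunit, was at 35.8, 33.4 and 18.3 FPKM in fragments and at 13.4, 7.87 and 11.2 FPKM in mural cells. Its groups did not overlap (log2 fold change -1.32 ± 0.30, adjusted p = 0.0186), and the call was lost without fragments 1 or fragments 2 (highest adjusted p = 0.0804).

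In complex II, which has no mitochondrial subunit, the 4 genes had log2 fold changes above 0 but only *Sdhc* passed the test. *Sdhc* encodes a membrane anchor of succinate dehydrogenase (chr1:173057296-173080734, NCBIM37, minus strand). It was at 31.7, 28.1 and 23.4 FPKM in fragments and at 65.2, 53.9 and 75.7 FPKM in mural cells. That is 2.34-fold higher without overlap (log2 fold change 1.20 ± 0.17, adjusted p = 0.00287). The catalytic subunit *Sdha* was at 47.2 to 74.6 FPKM in fragments and at 72.0 to 91.2 FPKM in mural cells (adjusted p = 0.11). The iron-sulfur subunit *Sdhb* (log2 fold change 0.26 ± 0.16) and the other anchor, *Sdhd* (0.07 ± 0.16), overlapped between the groups.

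In complex III, 3 of 8 nuclear subunits were higher and none was lower (limma; 4 and 0 at an unadjusted p under 0.05). Counts at an unadjusted p, here and below, have no share over all genes tested beside them and are not read as an excess. *Uqcrc1*, a core protein, was at 100.8, 82.1 and 101.5 FPKM in fragments and at 159, 154 and 154 FPKM in mural cells (log2 fold change 0.72 ± 0.12, adjusted p = 0.00518). The other core protein, *Uqcrc2*, was at 38.9, 33.0 and 59.0 FPKM and at 63.3, 82.5 and 86.1 FPKM (0.84 ± 0.23, adjusted p = 0.0381). *Uqcrq* was the third (0.42 ± 0.12, adjusted p = 0.0398), and its call was lost with any 1 library left out. *Uqcrc2* lost its call without fragments 1, fragments 2, mural 2 or mural 3. *Uqcrb*, the subunit with the highest mean after *Uqcrc1*, was at 75.7 to 107 FPKM in fragments and at 108 to 164 FPKM in mural cells and did not pass (adjusted p = 0.131).

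In complex I, 5 of 38 tested nuclear subunits were higher and none was lower (limma; 11 and 1 at an unadjusted p under 0.05), with a median log2 fold change of 0.07. Beside *Ndufa4l2* these were *Ndufb10* (log2 fold change 0.71 ± 0.16), *Ndufb9* (0.63 ± 0.15), *Ndufv2* (0.61 ± 0.11) and *Ndufv1* (0.52 ± 0.11). *Ndufv1* and *Ndufv2* form the part of the complex that binds NADH. *Ndufb9* was at 69.8, 92.6 and 73.9 FPKM in fragments and at 136, 116 and 113 FPKM in mural cells, without overlap. Among these calls only those of *Ndufa4l2* and *Ndufv2* remained with every library left out. In complex IV, *Cox4i2* was the only one of 14 tested nuclear subunits past the test. The median log2 fold change of these 14 was -0.22, with 6 above 0 and 8 below. *Cox6c* and *Cox8a*, with the highest mean levels there, overlapped between the groups (adjusted p = 0.677 and 0.241). The 8 genes that are no subunits had no call (log2 fold changes from -1.28 to 0.41; in limma, 1 was higher and 1 lower at an unadjusted p under 0.05).

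**Figure D4:**
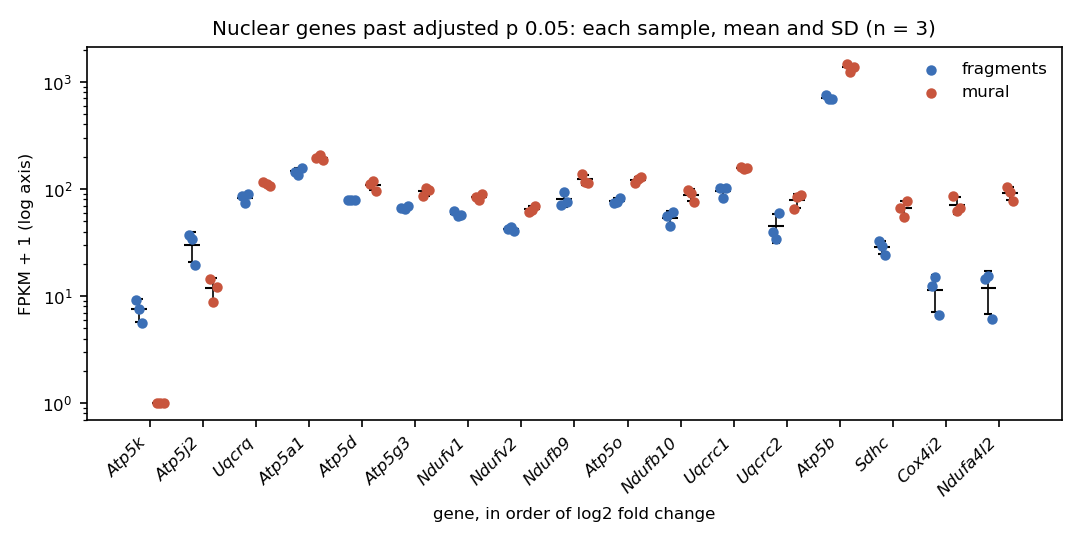
FPKM + 1 on a log axis for the 17 nuclear genes past an adjusted p of 0.05, in order of log2 fold change, in each sample with the mean and SD (n = 3). *Atp5k* and *Atp5j2* lie lower in mural cells and the other 15 genes higher, most by less than 2-fold.

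Transcript length moved with these differences. Among the nuclear members, the median log2 fold change was -0.24 for 25 genes under 700 bases, 0.14 for 26 genes from 700 to 1200 bases and 0.30 for 36 longer genes. Over all genes tested with a known length, the medians in the same ranges were -0.58, -0.22 and -0.09. The medians were lowest for the short genes, among the members and among all genes. The Spearman correlation of length and log2 fold change was 0.40 over the nuclear members and 0.09 over all genes with a known length. From the shortest to the longest range, 1, 5 and 9 nuclear members were higher and 1, 1 and 0 were lower. The part of length in the calls was not tested. All 25 called members were at least 500 bases long.

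Of the 13 protein genes of the mitochondrial genome, 12 were tested, 8 were lower in mural cells and none was higher (limma; at an unadjusted p under 0.05, 9 were lower and 0 higher). For 10 of the 12 every mural sample lay below every fragments sample. The largest log2 fold changes were those of *mt-Nd6* and *mt-Nd4*, both of complex I. *mt-Nd6*, the only protein gene read from the opposite strand, was at 295, 249 and 176 FPKM in fragments and at 71.8, 46.1 and 31.9 FPKM in mural cells (log2 fold change -2.29 ± 0.31, adjusted p = 0.00206). *mt-Nd4* was at 290, 286 and 195 FPKM and at 98.9, 51.3 and 59.3 FPKM (-1.90 ± 0.27, adjusted p = 0.00252). Both calls remained with each library left out. Behind *mt-Nd6* stood an estimated 431, 336 and 262 fragments in the fragments libraries and 41, 11 and 8 in the mural libraries. Endothelial and microglial markers were lower in the same samples, and their part in the mitochondrial values was not tested.

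*mt-Nd1* was at 384, 330 and 237 FPKM in fragments and at 197, 79.7 and 129 FPKM in mural cells (log2 fold change -1.29 ± 0.33, adjusted p = 0.0295). *mt-Nd5* was at 317, 327 and 204 FPKM and at 165, 96.7 and 124 FPKM (-1.13 ± 0.25, adjusted p = 0.0165). *mt-Nd2* was at 168, 160 and 111 FPKM and at 96.7, 57.6 and 59.1 FPKM (-1.05 ± 0.24, adjusted p = 0.021). Fragments 3 was the lowest and mural 1 the highest sample of its group in all 3 genes. For *mt-Nd3* every mural sample lay below every fragments sample (97.2 to 182 FPKM against 194 to 225 FPKM), but the difference missed the threshold (-0.79 ± 0.24, adjusted p = 0.052). *mt-Nd4l* was listed at 2.19 FPKM in fragments 2 and at 0 elsewhere and was not tested.

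Of the other subunits, *mt-Cytb*, the cytochrome b of complex III, was at 319, 314 and 204 FPKM in fragments and at 158, 99.5 and 151 FPKM in mural cells (log2 fold change -1.03 ± 0.24, adjusted p = 0.02). *mt-Atp6*, the a subunit of the ATP synthase, was at 122, 113 and 78.7 FPKM and at 62.8, 33.4 and 55.5 FPKM (-1.06 ± 0.27, adjusted p = 0.0274). *mt-Co2*, a catalytic core subunit of complex IV, was at 404, 374 and 328 FPKM and at 248, 152 and 208 FPKM (-0.88 ± 0.19, adjusted p = 0.0153). The other subunits were not called. *mt-Co1*, with the highest level of all 13, was at 972, 973 and 913 FPKM in fragments and at 796, 886 and 872 FPKM in mural cells (-0.16 ± 0.12, adjusted p = 0.387). *mt-Co3* was at 486 to 594 FPKM and at 425 to 489 FPKM (-0.29 ± 0.13, adjusted p = 0.16). *mt-Atp8* was at 153 to 218 FPKM and at 157 to 239 FPKM, with overlap (0.13 ± 0.20, adjusted p = 0.683).

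**Figure D5:**
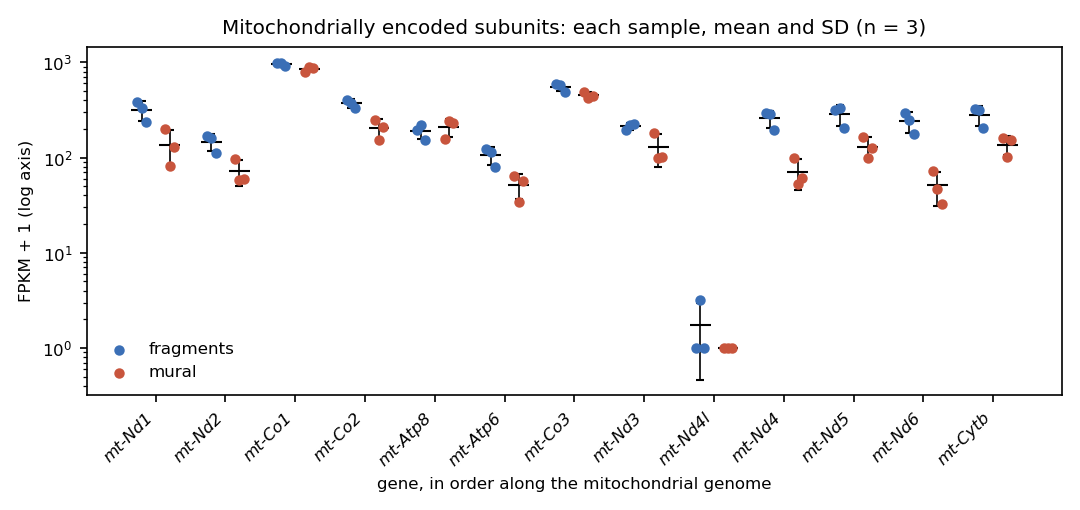
FPKM + 1 on a log axis for the 13 mitochondrial protein genes in their order along the genome, in each sample with the mean and SD (n = 3). The groups lie closest together for *mt-Co1*, *mt-Co3* and *mt-Atp8*, *mt-Nd6* and *mt-Nd4* are the furthest apart, and *mt-Nd4l* is at or near 0.

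Within the 12 tested mitochondrial genes, fragments 3 was the lowest fragments sample for 11 and mural 1 the highest mural sample for 10. Without fragments 1 or fragments 2, *mt-Nd1*, *mt-Nd2*, *mt-Nd5*, *mt-Cytb*, *mt-Atp6* and *mt-Co2* lost their call (highest adjusted p = 0.105), while their direction stayed. *mt-Nd2* lost it without mural 2 or mural 3 too, and *mt-Nd1* without mural 3. The ratio of *mt-Nd6* to *mt-Nd5*, which are neighbours on opposite strands, was 0.759 to 0.932 in fragments and 0.258 to 0.476 in mural cells, without overlap and without a test. The mitochondrial ribosomal RNAs, measured in libraries depleted of ribosomal RNA, differed from each other. *mt-Rnr2* was at 4752, 5250 and 4905 FPKM in fragments and at 6150, 8342 and 7566 FPKM in mural cells, without overlap and with mural cells above, while *mt-Rnr1* overlapped, with 467 to 1397 FPKM and 604 to 783 FPKM.

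Several of these genes share bases with a neighbour or with the nucleus, which bears on how reads were assigned. *mt-Atp6* and *mt-Co3* share 1 base (chrM:8607), which is not shown. The other overlaps of neighbouring mitochondrial genes are shown with the shared bases in capitals and 12 flanking bases on each side (NCBIM37, plus strand): *mt-Atp8* with *mt-Atp6* (chrM:7927-7969), *mt-Nd4l* with *mt-Nd4* (chrM:10167-10173) and *mt-Nd5* with *mt-Nd6* (chrM:13552-13565).
mt-Atp8 and mt-Atp6: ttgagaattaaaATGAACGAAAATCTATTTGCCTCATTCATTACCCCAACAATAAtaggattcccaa
mt-Nd4l and mt-Nd4: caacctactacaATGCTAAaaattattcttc
mt-Nd5 and mt-Nd6: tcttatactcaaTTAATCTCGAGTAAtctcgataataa
The first 2 overlaps begin with the start codon of the second gene. In the third, *mt-Nd5* and *mt-Nd6* run towards each other and share 14 bases. The library kit keeps the strand of the RNA, but whether the counting used it is not given in the sources used here, so it is not known whether opposite-strand reads entered the *mt-Nd6* values.

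The nuclear genome of this build also holds copies of mitochondrial sequence. At 95% identity or more, such copies covered 100% of *mt-Co1*, *mt-Co2*, *mt-Atp8*, *mt-Atp6*, *mt-Co3* and *mt-Nd4l* and 99.1% of *mt-Nd3*. They covered 63.6% of *mt-Nd4*, 52.4% of *mt-Nd5*, 49.2% of *mt-Nd2* and none of *mt-Nd1*, *mt-Nd6* and *mt-Cytb*. The 4 tested genes with no call (mt-Co1, *mt-Co3*, *mt-Atp8* and *mt-Nd3*) were all among the fully or nearly fully copied ones, and so were *mt-Co2* and *mt-Atp6*, which were lower. *Gm10222*, a nuclear gene on chromosome 1 with the sequence of *mt-Nd4l*, was listed at 12, 6.57 and 2.06 FPKM in fragments and at 0 in all mural samples. The part of these copies in the values was not tested. Of the 92 nuclear members, 12 had at least 1 near-identical copy (at least 95% identity over at least 70% of the transcript), with 10 copies for *Atp5l*, and among the called members these were *Atp5k* and *Atp5o*.

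Genes around the complexes were read from lists of 86 tested genes, of which 8 were higher (9.3%, against 9.34% of all genes tested) and 2 lower (2.33%, against 13%), with a median log2 fold change of 0.09. *Cyc1*, the cytochrome c1 of complex III that the naming rule leaves out, was higher (33.5, 36.5 and 42.3 FPKM in fragments, 53.5, 66.2 and 48.6 FPKM in mural cells, adjusted p = 0.0409). Of 28 assembly factors 1 was higher, *Ecsit*, which helps to build complex I (ratio 1.85, adjusted p = 0.0393). None of the 4 electron carriers, cytochrome c among them, passed the test (limma; 0 at an unadjusted p under 0.05 too). Of 13 enzymes of the tricarboxylic acid cycle 2 were higher, among them the succinyl-CoA ligase subunit *Suclg1* (ratio 1.72). Of 13 membrane carriers and import proteins 2 were higher, the outer membrane pore *Vdac1* (ratio 1.62) and the ADP/ATP carrier *Slc25a4* (ratio 1.58).

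Of the list genes past the test, 3 differed by more than 2-fold. *Higd1b*, a HIG1 domain protein of mitochondria, was at 32.8, 23.8 and 19.1 FPKM in fragments and at 214, 177 and 141 FPKM in mural cells (ratio 7.03, adjusted p = 0.000271). *Ppargc1b*, a coactivator that drives mitochondrial genes, was at 3.29, 4.38 and 2.06 FPKM and at 14.8, 18.9 and 11.0 FPKM (ratio 4.58, adjusted p = 0.00441). *Polg2*, the accessory subunit of the mitochondrial DNA polymerase, was lower, at 44.5, 12.3 and 16.9 FPKM and at 2.79, 3.24 and 5.31 FPKM (ratio 0.154, adjusted p = 0.0131), with fragments 1 well above the other fragments samples. None of the 3 overlapped between the groups. The remaining 12 genes for mitochondrial DNA replication and expression, *Tfam* and *Polrmt* among them, did not pass, nor did *Ppargc1a* (adjusted p = 0.668). *Gabpb1*, a subunit of the factor GABP, was lower (29.5, 34.4 and 25.9 FPKM against 17.7, 17.3 and 10.6 FPKM, adjusted p = 0.0223).

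Nuclear subunit genes are known to share sites for NRF1, GABP and YY1. Promoters are shown for 3 of the 15 raised members, picked among those that hold such a motif. The promoter of *Atp5g3*, which is raised and holds the NRF1 motif too, is not shown. RefSeq windows of 300 bases (250 before and 50 after the start, GRCm38.p6) were at hand for 71 of 91 nuclear member symbols (76 windows) and for 8 of the 15 raised members. *Cox4i2*, *Ndufa4l2*, *Sdhc*, *Atp5a1*, *Ndufb9*, *Uqcrc2* and *Uqcrq* had none in the table. On either strand, the NRF1 motif (GCGCA, any base, then GCGC) was in 25% of the members' windows and in 4.60% of all 32851 windows. CCGGAAG, read by ETS factors such as GABP, was in 22.4% and 8.86%, and ATGGCGG, read by YY1, in 14.5% and 4.05%. ACGTG, the core of the HIF site, was in 23.7% and 19.6%. Of the 8 raised members with a window, 3 held the NRF1 motif, 1 the YY1 motif and 0 the ETS motif. No NRF1, ETS or YY1 motif was in 4 of the 8, and the HIF core was in 4 of the 8. Capitals below mark any of these 4 motifs, which may overlap.
Uqcrc1 (chr9:108936398-108936697, plus strand): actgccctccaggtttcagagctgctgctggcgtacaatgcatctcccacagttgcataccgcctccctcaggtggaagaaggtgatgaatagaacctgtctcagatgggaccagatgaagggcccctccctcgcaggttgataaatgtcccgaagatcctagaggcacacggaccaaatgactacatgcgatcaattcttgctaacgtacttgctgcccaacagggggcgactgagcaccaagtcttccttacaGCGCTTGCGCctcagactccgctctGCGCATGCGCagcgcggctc
Atp5o (chr16:91931581-91931880, minus strand): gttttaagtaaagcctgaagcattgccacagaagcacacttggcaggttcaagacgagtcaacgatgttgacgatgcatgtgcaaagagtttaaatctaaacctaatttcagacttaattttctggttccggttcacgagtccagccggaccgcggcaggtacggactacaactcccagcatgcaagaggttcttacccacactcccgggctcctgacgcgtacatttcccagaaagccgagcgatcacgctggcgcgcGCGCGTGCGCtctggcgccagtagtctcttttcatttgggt
Atp5b (chr10:128083057-128083356, plus strand): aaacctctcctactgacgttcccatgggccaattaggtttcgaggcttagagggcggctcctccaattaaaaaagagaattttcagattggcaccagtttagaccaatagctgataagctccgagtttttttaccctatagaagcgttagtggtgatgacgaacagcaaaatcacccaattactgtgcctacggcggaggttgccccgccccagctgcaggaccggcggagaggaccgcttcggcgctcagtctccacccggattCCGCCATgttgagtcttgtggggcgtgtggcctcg
The *Uqcrc1* window holds the NRF1 motif at 2 places and the *Atp5o* window at 1, and the *Atp5b* window holds the YY1 motif on the other strand. Such matches describe the letters only.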

How the data were processed

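Per the labels and the study's methods, RNA from 3 samples of sorted mural cells and 3 of microvascular fragments was made into stranded libraries and sequenced in paired ends on 1 lane. The authors aligned reads to NCBIM37 with TopHat2 2.0.4, removed duplicates with Picard 1.92 and deposited FPKM per Ensembl gene from Cufflinks 2.2.1, without pooling replicates; the scaling between libraries and the strand setting are not given in the sources used here. Cufflinks FPKM are not counts, so no count test was used.

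Genes were matched to GENCODE symbols of NCBIM37 (33116 of 33460 matched, after 9 repeated identifiers were merged). Members were taken by symbol. The test was a linear model of limma 3.58.1 (R 4.3.3) on log2(FPKM + 1), with an intensity trend, over the 14801 genes at FPKM of 1 or more in at least 3 samples, and p-values were adjusted by Benjamini-Hochberg over all of them. Fold changes on this scale understate those of low genes. The p-values weigh each group difference against a variance from the spread between these samples, drawn towards the intensity trend over all genes tested. The fragments behind a value were estimated from the steps of low FPKM values (98.02 to 98.9% of low values within 0.1 of a whole fragment). The mural libraries had 1.04 to 2.37 M fragments on protein-coding genes and the fragments libraries 5.44 to 5.97 M, so low and short genes are least precise in mural cells. Copies were searched with BLAST+ 2.17.0, and other steps used Python 3.11.15 and pandas 2.3.3. The fit was tested on simulated data.

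The members and gene lists were chosen with earlier results of these data known. The genes named are members past an adjusted p of 0.05 with a ratio above 2 or under 0.5, the mitochondrial genes, the isoform pairs, Sdha to Sdhd, in complexes I, III, IV and V the 2 highest and 2 lowest called and the 2 with the highest mean, the 8 genes that are no subunits, and list genes past 2-fold. Other genes, Ndufv1, Ndufv2, Uqcrq, Atp5d and the remaining list genes among them, were named after their values were seen. Some genes that these rules would name are not reported here. Alternatives changed the pseudocount, scaling, filter, trend, threshold, gene set, replicate block and single libraries.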

Additional observations from a re-analysis of the deposited data

How the results depend on the processing

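The direction of every called member was the same in all alternatives in which it was tested. The medians stayed above 0 for the nuclear members and below 0 for the mitochondrial members. The medians ranged with single libraries left out from 0.053 to 0.254 for the nuclear members and from -1.238 to -0.807 for the mitochondrial members. With single libraries left out, 7 to 14 members were higher, 2 to 16 were lower, 3 to 4 were higher more than 2-fold and 2 to 14 were lower more than 2-fold. Calls over all genes tested moved in the same runs, with 842 to 1316 genes higher and 719 to 2127 lower. With every library in, 1383 genes were higher and 1927 lower. The lowest counts of lower members came without fragments 1 or fragments 2, and the highest without mural 1; the cause was not tested. Without the intensity trend 9 members were higher, beside 1245 of 14801 genes tested. With quantile normalization 5 were higher more than 2-fold. At an adjusted p under 0.01, 7 were higher, 3 were lower and 3 were lower more than 2-fold. Of 2 restrictions chosen after seeing the data, the first counted only members of at least 500 bases, with 15 higher and 10 lower. Every called member is that long, so this count could not differ from the main one and is no test of length. The other, leaving out genes at 0 throughout a group, gave 15 higher and 9 lower.

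Of the 25 called members, 16 kept their call under every scaling, filter and model in which they were tested. *Atp5k*, which is among the 16, did not pass the filter at FPKM 5 and was not tested there. All 270 tested genes at 0 in every mural sample were called lower, *Atp5k* among them, so its kept call is no support. With protein-coding genes only, 12 members were lower, beside 1771 of 13415 genes tested. No source used here states that equal replicate numbers mark the same animal, and the deviations of same-numbered samples correlated at 0.0818, 0.0203 and 0.0454 across genes, each the highest for its samples. With the replicate block, 13 members were higher and 10 lower; the calls of Atp5d (adjusted p = 0.0528), Atp5a1 (0.0751) and Uqcrq (0.0744) were lost, and Ndufs5, named after its value was seen, was gained. Depth limits the precision most in mural 2 and mural 3, where the median of 27 nuclear members rested on 16 and 15 fragments.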
